A study of Mus musculus with 36 samples.

Results

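Wnt5a + anti-Ptk7 and SCM + anti-Ptk7 are the pair of organoid cultures that received the same antibody in different media, and the comparison between them was chosen by the treatment named in the labels. It held 6 libraries of each condition, 12 of the 36 in the study. The organoids were grown in Matrigel from jejunal crypts of C57BL/6 mice, and crypts of 6 mice were used to start the cultures. The labels give no age, sex or genotype for the mice. In SCM + anti-Ptk7 the organoids received senescent conditioned medium, which is serum-free DMEM conditioned by senescent mouse embryonic fibroblasts, concentrated and combined with the organoid medium IntestiCult. In Wnt5a + anti-Ptk7 they received IntestiCult, the complete media of the study, with Wnt5a protein added. Both conditions contained an antibody against Ptk7. The media therefore differed in the Wnt5a protein, in the other secreted factors of the fibroblasts and in the base medium, and these cannot be told apart here. The other conditions were complete media, QCM (medium of quiescent fibroblasts), SCM and Wnt5a, each with IgG and 6 libraries. No library pairs complete media with anti-Ptk7 among those analysed here.

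Wnt5a is a secreted Wnt ligand that mostly acts without stabilising β-catenin, through Frizzled and Ror receptors, planar polarity proteins and Ca2+ signaling. Ptk7 is a transmembrane pseudokinase of the Wnt pathway whose extracellular part can be shed from the cell surface. In the intestine, YAP and TAZ are co-activators that bind TEAD factors at DNA, and a fetal-like or revival state with high Clu is known from epithelium under repair.

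Totals ranged from 10581350 to 14742230 counts in SCM + anti-Ptk7 and from 11626500 to 15726081 counts in Wnt5a + anti-Ptk7. All pairs of replicates differed by more than sampling noise (chi-square per gene from 8.25 to 89.1 over 30 pairs). Epithelial markers were abundant, with Epcam between 2280 and 2791 CPM (the count as a share of the TMM-scaled library total) in SCM + anti-Ptk7 and between 2515 and 4099 CPM in Wnt5a + anti-Ptk7. Of 14 fibroblast markers, 6 had no count in any of the 12 libraries (Col3a1, Col6a1, Col6a2, Dcn, Thy1 and Postn), and Col1a1 stayed at or below 0.565 CPM. Of 14 immune markers, 5 had no count, and the summed level was 10.7 to 17.5 CPM in SCM + anti-Ptk7 and 17.6 to 21.3 CPM in Wnt5a + anti-Ptk7. Of the 4 that were tested none was called, and the part of these markers in the results was not tested. Wnt5a + anti-Ptk7 replicate 1 stood apart from its condition. Mitochondrial genes held 0.309% of its counts, against 0.530% to 0.914% in the other 5 libraries, and the 10 most abundant genes held 5.35%, against 3.31% to 3.96%.

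Of 15497 genes tested, 198 were higher and 39 lower in Wnt5a + anti-Ptk7 than in SCM + anti-Ptk7 (edgeR's quasi-likelihood test, fold change over 1.5 at an adjusted p under 0.05), which is 1.28% and 0.252% of the genes tested. The genes that were higher had a median log2 fold change of 1.04, and 104 of them changed over 2-fold. The genes that were lower had a median of −0.74, and 4 changed over 2-fold. Libraries of the conditions did not overlap in 75 of the called genes and in 1.77% of all genes tested. In 207 of the called genes, each of the 6 pairs of libraries with the same replicate number moved in the direction of the call. The genes were called on these same libraries, and whether the numbers pair them is not known. That count is therefore no separate evidence for the calls. In bulk RNA, fewer cells of a type and less RNA per cell cannot be told apart. The replicate number, which may mark the 6 mice, was also entered as a block, and 411 genes were then higher (2.65%) and 88 lower (0.568%). A fit of the 12 libraries alone called 10 higher and 1 lower, together 0.0768% of the genes tested there, and the same 12 libraries with the block called 328 higher and 54 lower.

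The counts depended on single libraries. Without Wnt5a + anti-Ptk7 replicate 1, 17 genes were higher and 2 lower, and without replicate 5 of that condition 93 were higher and 22 lower. The counts were 327 and 51 without Wnt5a + anti-Ptk7 replicate 3 and 333 and 58 without replicate 6. Without SCM + anti-Ptk7 replicate 1 they were 411 and 92, without replicate 3 they were 122 and 22, without replicate 4 they were 85 and 12, without replicate 5 they were 117 and 21, and without replicate 6 they were 132 and 17. Replicate 1 had the highest level of its condition for 172 of the 198 higher genes in Wnt5a + anti-Ptk7 (86.9%, against 28.7% of all genes tested) and for 115 in SCM + anti-Ptk7 (58.1%, against 22.2%). Leaving out number 1 from both conditions left 82 genes higher and 24 lower. Of the called genes, 17 were called in every one of the 12 fits that left out 1 library, among them Ctse, P2rx2, Clu, Tnfrsf11b, Avil, Ccn1, Thbs1 and Apoa1.

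**Figure D1:**
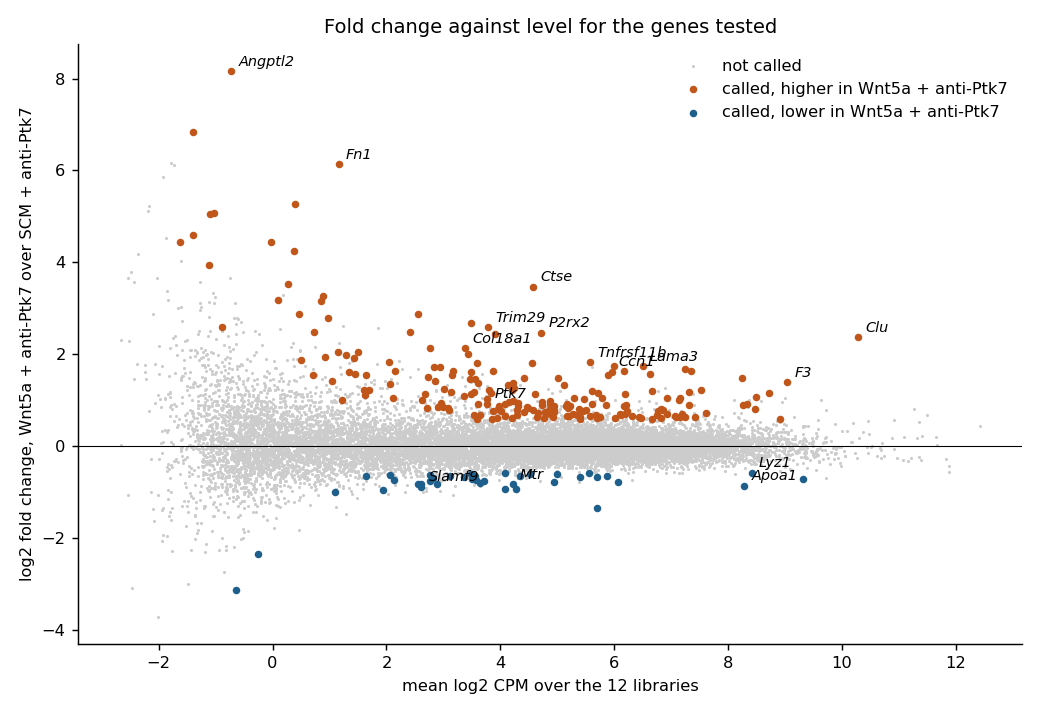
Log2 fold change of Wnt5a + anti-Ptk7 over SCM + anti-Ptk7 (vertical axis) against the mean log2 CPM over the 12 libraries (horizontal axis) for the 15497 genes tested, with the 198 genes called higher in orange and the 39 called lower in blue. Ctse lies high on the vertical axis at 3.47, and Clu is the most abundant of the called genes that are higher.

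Fn1, which encodes fibronectin (chromosome 1, 71585520 to 71653200, GRCm38, protein coding), had no count in 4 of the 6 libraries of SCM + anti-Ptk7 and 2.08 CPM in its highest library. In Wnt5a + anti-Ptk7 it ranged from 8.29 to 60.6 CPM (median 16.3). The means were 0.362 and 27.1 CPM, and SCM + anti-Ptk7 held 30 counts in all. Its median was at or below 0.0490 CPM in the 4 conditions without Wnt5a protein, so that it passed the filter on low counts through the Wnt5a conditions and its levels are given without a test. Fn1 is also a fibroblast marker, and the summed level of the 14 fibroblast markers was between 4.27 and 10.8 CPM in SCM + anti-Ptk7 and between 15.7 and 66.8 CPM in Wnt5a + anti-Ptk7. In Wnt5a + anti-Ptk7 most of this sum was Fn1 itself, and the other 13 markers summed to 4.27 to 10.7 CPM and to 6.01 to 8.79 CPM. The fibroblast collagens Col3a1 and Col1a1 were at 0 and at or below 0.565 CPM in those libraries. Vim, the intermediate filament of mesenchymal cells, had 0.573 to 3.26 CPM and 3.19 to 4.80 CPM (adjusted p = 0.222).

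Clu encodes clusterin, a secreted chaperone that marks revival cells (chromosome 14, 65968483 to 65981547). It ranged from 289 to 1165 CPM (median 558) in SCM + anti-Ptk7 and from 1684 to 7042 CPM (median 2258) in Wnt5a + anti-Ptk7. The groups did not overlap, and the log2 fold change was 2.36 (adjusted p = 0.00329, edgeR, standard error 0.418). Numbers 1 and 5 were the highest libraries for Clu in each of the 6 conditions of the study. Ctse, which encodes the aspartic protease cathepsin E, went from 2.13 to 17.5 CPM (median 8.59) in SCM + anti-Ptk7 and from 39.0 to 234.6 CPM (median 60.1) in Wnt5a + anti-Ptk7, a log2 fold change of 3.47 (adjusted p = 0.00309). P2rx2, an ATP-gated ion channel subunit, lay between 5.27 and 24.1 CPM (median 11.3) and between 33.1 and 150.2 CPM (median 51.8), a log2 fold change of 2.46 (adjusted p = 0.000763). Numbers 1 and 5 were also the highest for Ctse in all 6 conditions, whereas they were so for P2rx2 in 3.

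Tnfrsf11b encodes osteoprotegerin, a soluble decoy receptor for the cytokine RANKL (chromosome 15, 54250619 to 54278484). Its levels were 20.8 to 32.7 CPM (median 26.1) in SCM + anti-Ptk7 and 63.6 to 185.4 CPM (median 74.5) in Wnt5a + anti-Ptk7. The log2 fold change of 1.83 had the lowest adjusted p of the comparison (adjusted p = 7.21e-05, edgeR, standard error 0.238), and without Wnt5a + anti-Ptk7 replicate 1 the adjusted p was 0.000212. Avil, which encodes the actin-binding protein advillin of tuft cells, lay between 3.14 and 5.86 CPM (median 4.37) and between 6.77 and 28.3 CPM (median 12.9), with a log2 fold change of 1.72 (adjusted p = 0.00309). Both genes were also called in the 12 libraries alone (adjusted p = 0.0168 for Tnfrsf11b and 0.0454 for Avil), as were Ctse, Clu and Ccn1, whereas P2rx2 was not (adjusted p = 0.0506).

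The other 8 of the 14 named rises were Trim29 (log2 fold change 2.59), Acsbg1 (2.44), Col18a1 (2.13), Plxna3 (2.04), the noncoding transcript Gm15270 (1.98), Ecm1 (1.81), Abtb2 (1.80) and Dpysl3 (1.63), with adjusted p values between 0.0086 and 0.0409. Col18a1 encodes a basement membrane collagen, Ecm1 a secreted matrix glycoprotein and Plxna3 a semaphorin receptor. Their libraries did not overlap between the conditions, and Col18a1, for example, lay between 2.49 and 9.25 CPM in SCM + anti-Ptk7 and between 10.9 and 70.7 CPM in Wnt5a + anti-Ptk7. None of these 8 was called without Wnt5a + anti-Ptk7 replicate 1, where their adjusted p ranged from 0.0534 for Ecm1 to 0.197 for Gm15270. All of them were called with the replicate block.

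Several transcripts of low abundance were nearly silent in SCM + anti-Ptk7; they were picked after their values were seen. Angptl2, an angiopoietin-like secreted protein, had no count in the 6 libraries of SCM + anti-Ptk7 and 1.09 to 4.52 CPM in Wnt5a + anti-Ptk7. Against a floor of 3 counts over the group it was at least 68.8-fold higher. It also had no count in complete media or QCM, so that it passed the filter on low counts through the Wnt5a conditions. Add2, which encodes a cytoskeletal adducin, had 0 to 1.34 CPM and 2.62 to 27.8 CPM. Sox11, a transcription factor of embryonic tissues, had 0 to 0.932 CPM and 2.54 to 14.6 CPM. F2r, a receptor cleaved by thrombin, had 0 to 0.573 CPM and 1.27 to 12.2 CPM. These values describe the choice of the 4 genes and are given without a test.

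**Figure D2:**
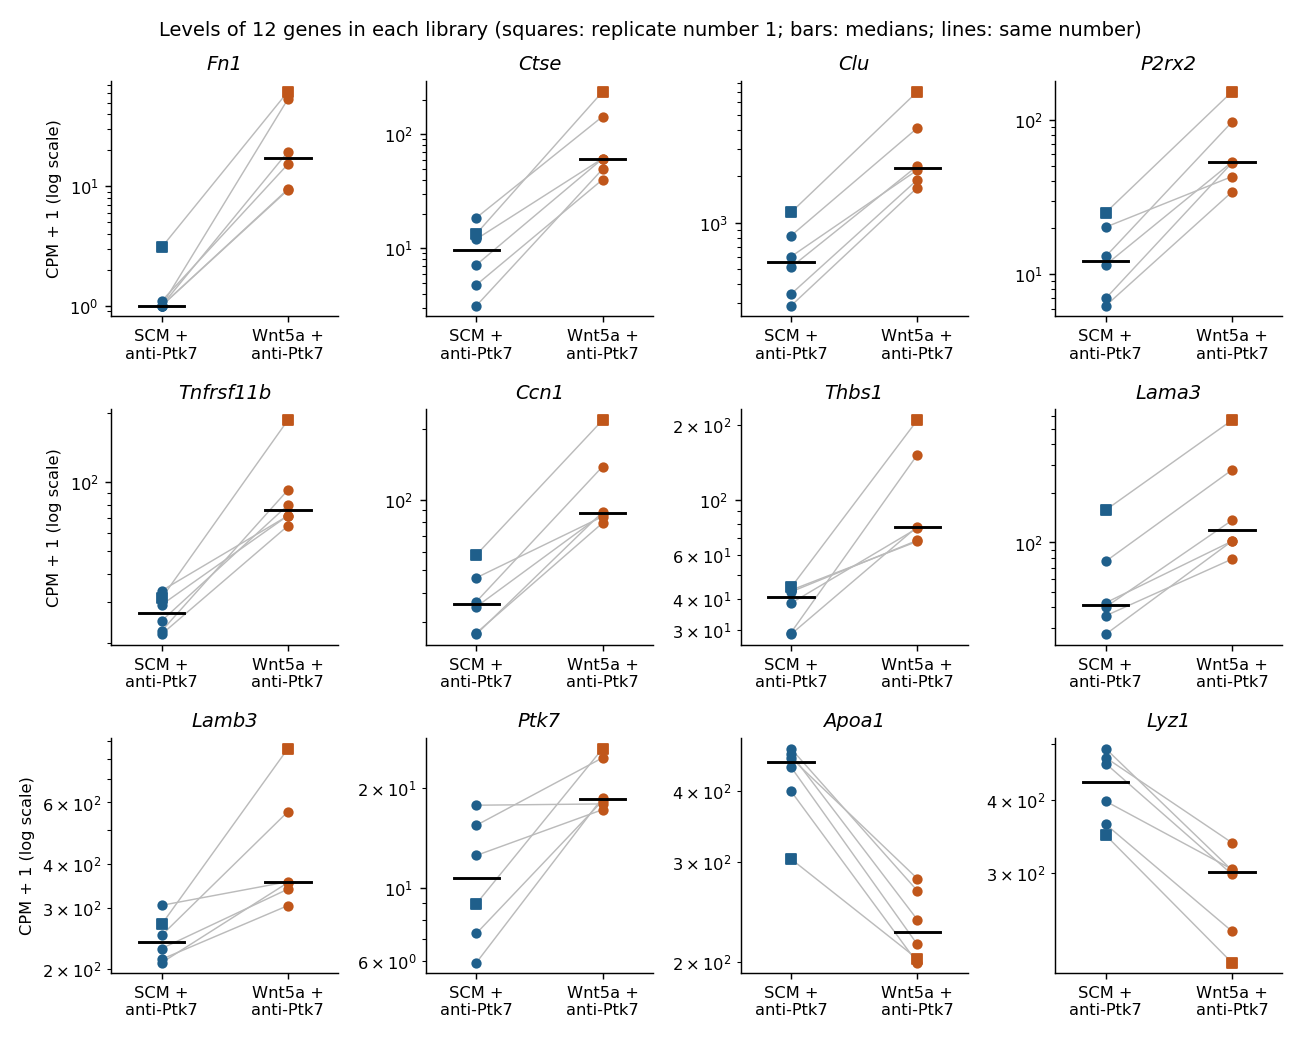
CPM + 1 on a log scale for 12 genes in the 6 libraries of SCM + anti-Ptk7 (blue) and of Wnt5a + anti-Ptk7 (orange); squares mark replicate number 1, black bars the medians, and lines join libraries with the same number. The first 7 genes separate the conditions completely, Lama3, Lamb3 and Ptk7 overlap, Apoa1 and Lyz1 are lower in every library of Wnt5a + anti-Ptk7, and number 1 is the top orange point of the genes that are higher.

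Of 20 tested laminin, integrin and netrin genes, 4 were higher and 0 lower, against 1.28% and 0.252% of all genes, and all 20 had a positive log2 fold change (median 0.59, against 0.0034 over all genes tested). Among those called, Lama3 and Lamb3 encode laminin chains, and Itgb4 encodes an integrin subunit of hemidesmosomes. Lama3 ranged from 26.3 to 157.2 CPM (median 40.4) in SCM + anti-Ptk7 and from 78.1 to 562 CPM (median 118) in Wnt5a + anti-Ptk7, a log2 fold change of 1.74 (adjusted p = 0.0318). Lamb3 differed by 0.91 (207.6 to 303.5 and 302.9 to 855 CPM, adjusted p = 0.0109) and Itgb4 by 0.89 (157 to 387 and 280.5 to 869 CPM, adjusted p = 0.0359). The ranges of these 3 genes overlapped. Each of the 6 pairs with the same number was higher in Wnt5a + anti-Ptk7, in the same libraries on which the genes were called. The β1 integrin Itgb1 passed the test at a smaller change (log2 fold change 0.54, adjusted p = 0.0136). Without Wnt5a + anti-Ptk7 replicate 1 none of these 3 was called (adjusted p = 0.0767 for Lamb3, 0.219 for Lama3 and 0.236 for Itgb4). With the replicate block 6 members of the list were called higher, against 2.65% of all genes.

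YAP/TAZ targets and the fetal and revival genes were each called for 3 members. Of 20 tested YAP/TAZ targets, Ccn1, F3 and Gadd45a were higher and none was lower, against 1.28% and 0.252% of all genes; 17 were above 0, with a median of 0.70. Ccn1, a matricellular protein (chromosome 3, 145646976 to 145649981), ranged from 25.7 to 57.2 CPM (median 34.9) in SCM + anti-Ptk7 and from 78.6 to 216.9 CPM (median 86.7) in Wnt5a + anti-Ptk7. The groups did not overlap (log2 fold change 1.62, adjusted p = 0.00259 by edgeR, standard error 0.274). F3, the tissue factor that starts coagulation, ranged from 156 to 722 CPM (median 332) and from 449 to 2357 CPM (median 679.7), a log2 fold change of 1.38 (adjusted p = 0.0495). Gadd45a, a stress-response gene, differed by 0.68 (adjusted p = 0.0129). Ccn2, a close relative of Ccn1, lay between 3.49 and 16.1 CPM and between 13.4 and 56.3 CPM and did not pass the test (log2 fold change 1.58, adjusted p = 0.0664). It passed with the replicate block (adjusted p = 5.92e-05), where 7 of the 20 were higher, against 2.65% of all genes. Of 17 fetal and revival genes, 3 were higher, among them Clu and Cd44, and none lower (median 0.72), and with the block 10 were higher. The hyaluronan receptor Cd44 ranged from 125 to 206 CPM and from 188 to 419 CPM (log2 fold change 0.72, adjusted p = 0.0315). Without SCM + anti-Ptk7 replicate 1 the median of these 17 was 1.02, and without Wnt5a + anti-Ptk7 replicate 1 it was 0.31; Ccn1 and Clu were then still called, and F3, Gadd45a and Cd44 were not. Among the TEAD factors, which were looked at after their values were seen, Tead2 was higher (2.35 to 3.73 and 3.70 to 8.55 CPM, log2 fold change 1.04, adjusted p = 0.00309), and Tead1, Tead3 and Tead4 did not pass (adjusted p = 0.662, 0.367 and 0.377).

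The 250 bases before the transcription start are shown for 4 of the higher genes whose promoter letters hold the motif of TEAD or of AP-1 factors. They are from RefSeq on GRCm38.p6, 5′ to 3′ on the gene's strand. For Lamb3 the RefSeq start used lies inside the span of the gene as counted here (193207699 to 193343878). Capitals mark the TEAD motif GGAATG, read on either strand, in Ccn1 (chr3:145649986-145650235, minus strand), Ptk7 (chr17:46629505-46629754, minus strand) and Lamb3 (chr1:193301993-193302242, plus strand), and the AP-1 motif TGANTCA in F3 (chr3:121723287-121723536, plus strand).
Ccn1: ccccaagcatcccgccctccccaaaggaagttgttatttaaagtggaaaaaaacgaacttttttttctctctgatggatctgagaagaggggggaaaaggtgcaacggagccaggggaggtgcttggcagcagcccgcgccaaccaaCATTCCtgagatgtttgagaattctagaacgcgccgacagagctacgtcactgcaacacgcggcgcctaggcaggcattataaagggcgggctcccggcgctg
Ptk7: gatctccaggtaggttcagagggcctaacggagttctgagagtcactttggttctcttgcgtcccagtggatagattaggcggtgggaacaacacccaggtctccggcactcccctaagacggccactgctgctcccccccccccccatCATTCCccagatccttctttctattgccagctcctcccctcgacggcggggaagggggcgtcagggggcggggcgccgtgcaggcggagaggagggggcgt
Lamb3: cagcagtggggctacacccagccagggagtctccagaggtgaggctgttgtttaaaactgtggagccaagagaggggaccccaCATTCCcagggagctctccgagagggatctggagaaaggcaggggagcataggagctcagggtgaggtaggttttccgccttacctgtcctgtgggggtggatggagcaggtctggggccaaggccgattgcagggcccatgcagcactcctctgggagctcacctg
F3: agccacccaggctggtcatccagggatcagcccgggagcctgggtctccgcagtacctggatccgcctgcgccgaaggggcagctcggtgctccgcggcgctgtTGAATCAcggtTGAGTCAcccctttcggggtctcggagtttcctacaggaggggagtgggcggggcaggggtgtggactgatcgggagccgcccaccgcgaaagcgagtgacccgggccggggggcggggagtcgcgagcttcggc
The first base of the motif lies 103, 101 and 167 bases before the start in Ccn1, Ptk7 and Lamb3, and 146 and 135 bases before it in F3. A match is a description of the letters. Over 300-base windows (250 before and 50 after the start), GGAATG was present in 13.2% of 189 promoters of higher genes, 16% of 25 promoters of lower genes and 12.5% of 13378 promoters of all genes tested. TGANTCA was present in 8.99%, 8% and 5.33%, the GATA motif AGATAA in 3.17%, 12% and 6.68%, and the aryl hydrocarbon receptor motif GCGTG in 41.8%, 36% and 49.3%. CAAAGTCCA (HNF4) was present in 0.529%, 4% and 0.478%, and TCACNCCAC (SREBP) in 0.529%, 0% and 1.16%. Of the 198 higher genes 141 had a promoter in the table, and of the 39 lower genes 23 had one.

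Ptk7, the receptor bound by the antibody, was itself higher in Wnt5a + anti-Ptk7. Its transcript (chromosome 17, 46564471 to 46629504) ranged from 4.94 to 16.8 CPM (median 9.75) in SCM + anti-Ptk7 and from 16.2 to 25.3 CPM (median 17.5) in Wnt5a + anti-Ptk7, a log2 fold change of 0.92 (adjusted p = 0.0352, edgeR, standard error 0.254). The ranges overlapped, and the call was lost without Wnt5a + anti-Ptk7 replicate 1 (adjusted p = 0.140). An antibody acts on the protein, so the transcript does not check its action. Of 21 tested noncanonical Wnt receptors and planar polarity genes, Ptk7 was the one called, and the median was 0.14. Among them Ror2 had a log2 fold change of −0.06 (adjusted p = 0.868), Ryk −0.29 (adjusted p = 0.357) and Vangl1 0.59 (adjusted p = 0.0777). Of 26 calcium and calmodulin genes, 2 were higher and none lower, against 1.28% and 0.252% of all genes (median 0.21). Camk2b, a subunit of the calmodulin-dependent kinase II, differed by 0.83 (11.2 to 23.9 and 19.2 to 47.9 CPM, adjusted p = 0.0303). Itpr3, a receptor that releases Ca2+ from the endoplasmic reticulum, differed by 0.69 (105 to 134 and 107 to 326.5 CPM, adjusted p = 0.0275). Neither was called without Wnt5a + anti-Ptk7 replicate 1 (adjusted p = 0.155 and 0.174).

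Canonical Wnt targets and crypt base stem cell genes held no called gene (0 of 15 and 0 of 16, with medians of 0.03 and −0.11). Of all genes 1.28% were higher and 0.252% lower, shares at which a list of this size is likely to hold none. Lgr5, a receptor of R-spondins on stem cells, had a log2 fold change of 0.21 (adjusted p = 0.623), Olfm4 −0.46 (adjusted p = 0.325) and Axin2 −0.27 (adjusted p = 0.399). With the block 1 gene of each list was lower, against 0.568% of all genes. The lists share members, among them Znrf3 (log2 fold change −0.64, adjusted p = 0.0809 by edgeR without the block), so these may be the same gene. These p values do not show that the media acted alike on these genes.

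Genes of growth factor and matrix signaling were called singly, where 1.28% of all genes were higher and 0.252% lower. Thbs1 and Tgfb1 were higher among 14 tested TGF-β and BMP response genes (median −0.04). With the replicate block 1 member was lower, against 0.568% of all genes. Thbs1, a matricellular protein that can activate latent TGF-β, ranged from 27.8 to 43.4 CPM (median 39.5) in SCM + anti-Ptk7 and from 67.1 to 208.7 CPM (median 76.5) in Wnt5a + anti-Ptk7. It did not overlap (log2 fold change 1.55, adjusted p = 0.00593 by edgeR, standard error 0.291). Tgfb1 lay between 2.35 and 5.95 CPM and between 6.17 and 15.2 CPM (log2 fold change 1.13, adjusted p = 0.0243). Egfr, the receptor of EGF, was the one called of 14 EGFR ligands and receptors (44.3 to 143 and 84.3 to 395 CPM, log2 fold change 1.19, adjusted p = 0.0235; list median 0.36). Dusp4, a phosphatase of MAP kinases, was the one called of 23 AP-1 and immediate early genes (23.4 to 35.4 and 36.7 to 107.9 CPM, log2 fold change 0.86, adjusted p = 0.0134; list median 0.36), with 21 of the 23 above 0. With the block, 7 of these 23 genes were higher, against 2.65% of all genes. Thbs1 was called without Wnt5a + anti-Ptk7 replicate 1 (adjusted p = 0.0401), and Tgfb1, Egfr and Dusp4 were not (adjusted p = 0.125, 0.180 and 0.0923).

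Among single members of other lists, the chloride channel Ano1 (log2 fold change 1.04, 65.4 to 217.7 and 140.1 to 427 CPM), the hexokinase Hk1 (1.16), the lipid droplet protein Plin2 (0.64), the receptor Ahr (0.59) and the stress-induced Nupr1 (0.59) were higher, with adjusted p values of 0.0487, 0.0262, 0.0327, 0.0364 and 0.0174. Ahr and Plin2 lost the call with the block because the fold fell under 1.5 (adjusted p = 0.00718 and 0.00415), and all 5 lost it without Wnt5a + anti-Ptk7 replicate 1. Of the 33 pathway and cell-state lists, 16 held no called gene, among them the lists of interferon, NF-kB, p53 and senescence, Notch, NRF2, cholesterol, squamous and circadian clock genes. Of all genes tested, 1.28% were higher and 0.252% lower, and with the replicate block 2.65% and 0.568%. With the block 3 of 15 squamous, 1 of 22 NF-kB, 1 of 16 Notch and 2 of 24 glycolysis and hypoxia genes were higher. Lower with it were 1 of 21 interferon genes and 2 metallothioneins in a list of 13 genes. A single call in a list of this size does not set it apart from all genes.

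**Figure D3:**
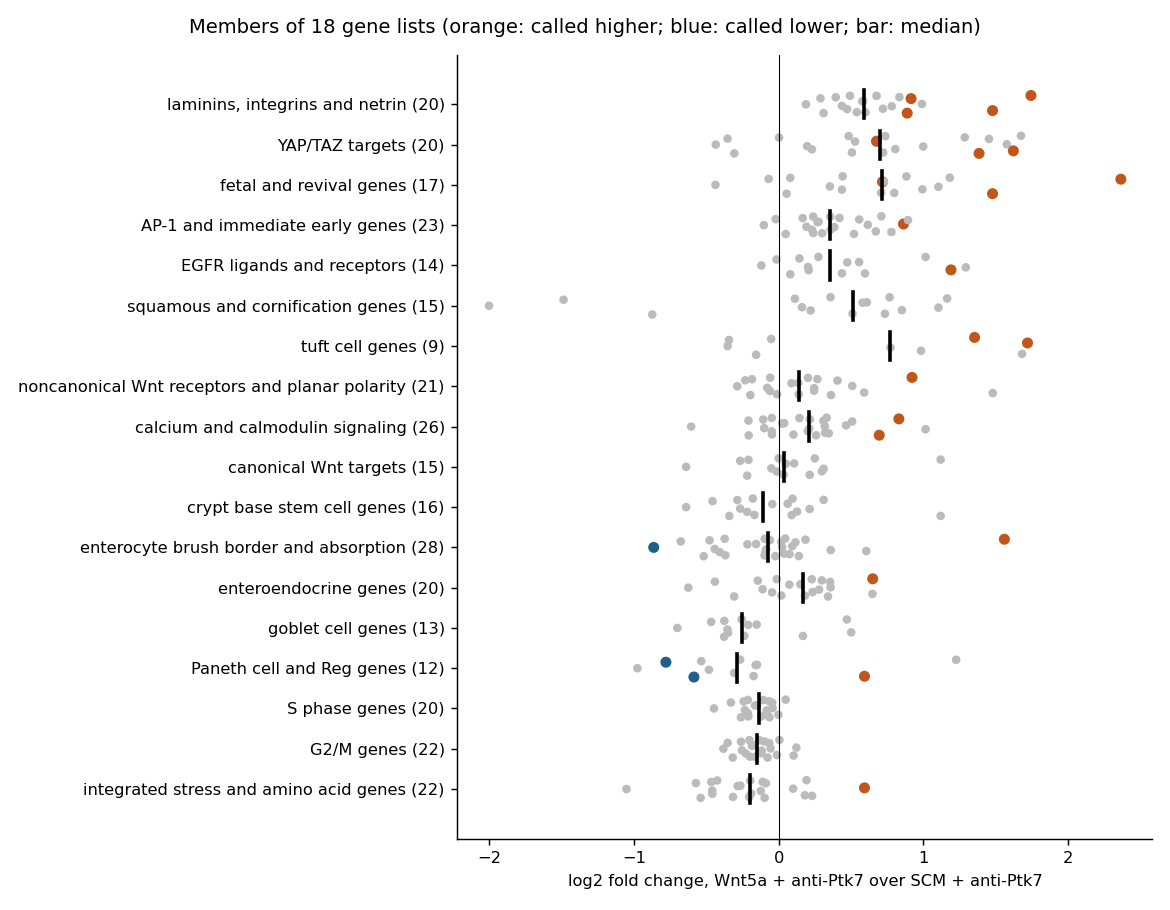
Log2 fold change of Wnt5a + anti-Ptk7 over SCM + anti-Ptk7 (horizontal axis) for every tested member of 18 gene lists, with the number tested in parentheses, called genes in orange (higher) or blue (lower) and the median of each list as a black bar. All 20 laminin and integrin genes lie right of 0, while 19 of the 20 S phase genes lie left of 0 within a narrow range and none of them is called.

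The cell type lists gave changes in both directions. Of all genes 1.28% were called higher and 0.252% lower, and with the replicate block 2.65% and 0.568%. Of 9 tested tuft cell genes, Avil and the taste transduction channel Trpm5 were higher (Trpm5 1.31 to 5.41 and 4.87 to 9.52 CPM, log2 fold change 1.35, adjusted p = 0.0488). The list median was 0.77 with 5 of the 9 above 0, and the tuft cell regulator Pou2f3 had −0.35 (adjusted p = 0.725). Levels were low, with the 14 listed genes summing to 16.3 to 31.3 CPM in SCM + anti-Ptk7 and 28.3 to 61.7 CPM in Wnt5a + anti-Ptk7. With a median of 0.16 over 20 enteroendocrine genes, the glucagon gene Gcg was the one called (76.5 to 140.8 and 136 to 206 CPM, log2 fold change 0.65, adjusted p = 0.00769), and without Wnt5a + anti-Ptk7 replicate 1 it was still called (adjusted p = 0.0380), as was Avil (adjusted p = 0.0199). Trpm5 was not called without that library (adjusted p = 0.141). With the replicate block 1 enteroendocrine gene, Neurog3, was called lower. Of 28 enterocyte genes, Cubn was higher and Apoa1 lower, with a median of −0.07, and 2 were lower with the replicate block. Cubn was not called without Wnt5a + anti-Ptk7 replicate 1 (adjusted p = 0.0799). Of 13 goblet cell genes none was called (median −0.26), and the chloride channel regulator Clca1, whose libraries did not overlap, had a log2 fold change of −0.70 (adjusted p = 0.0605) and was called lower with the replicate block (adjusted p = 0.0317).

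Apoa1, which encodes the main apolipoprotein of high-density lipoprotein (chromosome 9, 46228580 to 46230466), had the lowest adjusted p among the genes called lower. It ranged from 302.8 to 475 CPM (median 449) in SCM + anti-Ptk7 and from 198 to 279.6 CPM (median 225) in Wnt5a + anti-Ptk7. The groups did not overlap (log2 fold change −0.86, adjusted p = 0.00443 by edgeR, standard error 0.159), and it was called in the 12 libraries alone (adjusted p = 0.0179). The fatty acid binding protein Fabp1 passed the test below the fold threshold (−0.52, adjusted p = 0.0440), while Apoa4 (−0.48, adjusted p = 0.0831) and Fabp2 (−0.41, adjusted p = 0.0869) did not. Of 12 tested Paneth cell and Reg genes, 2 were lower (3 with the replicate block) and Nupr1 higher (median −0.29), against 0.252% of all genes lower (0.568% with the block) and 1.28% higher. The lysozyme gene Lyz1 ranged from 347 to 489.6 CPM (median 429) and from 209 to 337 CPM (median 299.6), without overlap (log2 fold change −0.59, adjusted p = 0.0101). The defensin Defa17 ranged from 55.4 to 119 CPM and from 26.1 to 79.6 CPM (log2 fold change −0.78, adjusted p = 0.0238). Both belong to families of near-identical genes between which the counting could split reads. Without Wnt5a + anti-Ptk7 replicate 1, Lyz1 and Defa17 were not called (adjusted p = 0.0534 and 0.0988).

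The naming rule gave 13 genes that were lower, all without overlap and with smaller changes than the rises, from −0.88 for Slamf9 to −0.59 for Lyz1. Mtr, the methionine synthase, ranged from 19.3 to 37.3 CPM (median 23.7) and from 11.7 to 16.9 CPM (median 14.03), a log2 fold change of −0.84 (adjusted p = 0.0469), and it lost its call in every fit that left out 1 library. Pdk3, a kinase of pyruvate dehydrogenase, differed by −0.60 (52.5 to 66.0 and 25.4 to 46.8 CPM, adjusted p = 0.0201). The histone genes Hist1h1e and Hist1h4d differed by −0.68 each (adjusted p = 0.00908 and 0.0101). Hist1h4d lay between 60.6 and 78.2 CPM and between 18.8 and 54.9 CPM. Others were R3hdml (−0.84), Rpl31 (−0.66), Snrnp25 (−0.60) and the unannotated or noncoding Gm38058 (−0.68) and Gm4129 (−0.62). Histone and ribosomal protein genes share sequence with copies in the genome, and Gm4129 is annotated as a transcript from a bidirectional promoter, so reads of these genes may belong to others. Of the 13 genes, Apoa1 and Hist1h1e were called without Wnt5a + anti-Ptk7 replicate 1, and Hist1h4d and Snrnp25 then passed the test (adjusted p = 0.0199 and 0.0401) at a fold change under 1.5.

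Among 22 tested genes of the integrated stress and amino acid list, 6 passed the test at a fold change under 1.5, all lower, where 2.06% of all genes were lower at an adjusted p under 0.05 and any fold change, and Nupr1 was the one called (list median −0.20). With the replicate block 2 members, Trib3 and Aldh1l2, were called lower, against 0.568% of all genes. The 6 include 4 genes described here after their values were seen. Phgdh, Psat1 and Psph encode the 3 enzymes of serine synthesis from glycolysis, and Shmt2 converts serine to glycine in mitochondria. Psat1 ranged from 132 to 172 CPM (median 155) in SCM + anti-Ptk7 and from 91.9 to 128 CPM (median 116) in Wnt5a + anti-Ptk7 (log2 fold change −0.47, adjusted p = 0.00427). Psph ranged from 49.99 to 75.8 CPM and from 38.3 to 46.4 CPM (−0.54, adjusted p = 0.0101). Phgdh ranged from 18.3 to 23.8 CPM and from 11.8 to 18.002 CPM (−0.46, adjusted p = 0.0182). Shmt2 ranged from 222 to 269 CPM and from 139.7 to 201.5 CPM (−0.43, adjusted p = 0.0148). The libraries of these 4 genes did not overlap, nor did those of the asparagine synthetase gene Asns (−0.26, adjusted p = 0.0274). Of all genes tested, 0.897% did not overlap and were lower, and 0.878% did not overlap and were higher. Without Wnt5a + anti-Ptk7 replicate 1, Psat1 and Psph passed (adjusted p = 0.0199 and 0.0427), and Phgdh and Shmt2 did not (adjusted p = 0.0915 and 0.0753).

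Of 20 S phase genes none was called, and 1 was above 0 (median −0.14), where 50.4% of all genes tested were above 0. Of 22 G2/M genes none was called and 3 were above 0 (median −0.15), and none of either list was called with the replicate block. The mitotic kinase gene Cdk1 was lower by less than the fold threshold, with 218 to 259 CPM and 136 to 202 CPM (log2 fold change −0.38, adjusted p = 0.0101), as was the dUTPase gene Dut (−0.45, adjusted p = 0.0197). Both did not overlap. Without Wnt5a + anti-Ptk7 replicate 1 Cdk1 passed (adjusted p = 0.0401) and Dut did not (adjusted p = 0.0816).

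The same media were also compared under the control antibody, in 12 other libraries. In Wnt5a + IgG, 46 genes were higher and 61 lower than in SCM + IgG (0.297% and 0.394% of the genes tested, edgeR's quasi-likelihood test). With the replicate block they were 160 and 99, and in the 12 libraries of that pair alone 24 and 27. The counts of higher and lower genes were 14 and 19 without SCM + IgG replicate 1, 29 and 38 without replicate 4, 16 and 24 without replicate 6, 8 and 14 without Wnt5a + IgG replicate 1, 72 and 107 without replicate 2, and 9 and 11 without replicate 5. Leaving out SCM + IgG replicate 5 gave 78 higher genes, and leaving out Wnt5a + IgG replicate 3 gave 71. Of the 198 genes higher with anti-Ptk7, 25 (12.6%) were also called higher with IgG and 190 had the same sign. Of the 46 higher with IgG, 25 (54.3%) were also called with anti-Ptk7 and 45 had the same sign. Of the 39 lower with anti-Ptk7, 10 (25.6%) were also called with IgG and 35 had the same sign, and these 10 were 16.4% of the 61 lower with IgG, of which 58 had the same sign. No gene was called in opposite directions. The 198 genes higher with anti-Ptk7 had a median log2 fold change of 1.04 there and 0.59 with IgG, and the 39 lower had −0.74 and −0.40. The 46 genes higher with IgG had a median log2 fold change of 0.98 there and 0.90 with anti-Ptk7, and the 61 lower with IgG had −0.76 and −0.51.

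The difference between these medium differences was tested as an interaction. No gene passed (0.0% of 15497, edgeR's quasi-likelihood test, lowest adjusted p = 0.999), with 602 genes at an unadjusted p under 0.05. DESeq2 called none, with 660 at an unadjusted p under 0.05. Both numbers are below the 1 in 20 of 15497 genes that chance alone gives at that cutoff. With the replicate block 3 genes passed, Clu (0.70 larger on the log2 scale with anti-Ptk7, adjusted p = 0.0415), Ctrb1 (1.27 larger, adjusted p = 0.0415) and Glipr1 (a difference of 0.98, adjusted p = 0.0275). Glipr1 differed in direction, with a median of 11.1 CPM in SCM + anti-Ptk7 and 14.3 in Wnt5a + anti-Ptk7 (log2 fold change 0.41, adjusted p = 0.133), against 23.5 in SCM + IgG and 16.8 in Wnt5a + IgG (log2 fold change −0.58, adjusted p = 0.0384). Ctrb1 encodes a digestive protease precursor. It had 32.5 to 81.5 CPM in SCM + anti-Ptk7 and 108 to 263 CPM in Wnt5a + anti-Ptk7, against 48.9 to 115 CPM in SCM + IgG and 75.8 to 205 CPM in Wnt5a + IgG. Tnfrsf11b had a log2 fold change of 1.83 with anti-Ptk7 and 1.26 with IgG, Apoa1 −0.86 and −0.76 and Mtr −0.84 and 0.30 (adjusted p = 0.999 for each interaction, edgeR). A p that misses the threshold does not show that the media differed equally under both antibodies.

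**Figure D4:**
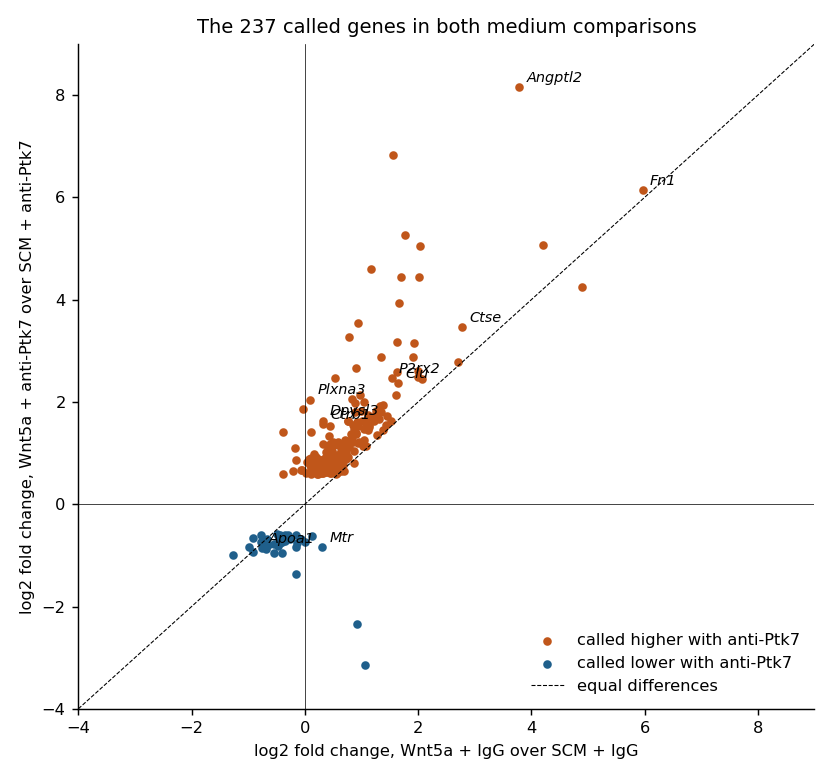
Log2 fold change between Wnt5a and SCM with anti-Ptk7 (vertical axis) against the same with IgG (horizontal axis) for the genes called with anti-Ptk7, 198 higher in orange and 39 lower in blue; the dashed line marks equal differences. 190 orange and 35 blue points have the same sign on both axes, and most lie farther from 0 on the vertical axis, on which they were chosen.

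The levels were also set beside complete media + IgG and QCM + IgG, without a test. Of the 198 genes higher in Wnt5a + anti-Ptk7, the mean log2 CPM in complete media lay below both conditions for 151, between them for 45 and above both for 2, and it was nearer to SCM + anti-Ptk7 for 184. QCM lay below both for 139 and between them for 57. Clu, for example, had a median of 41.9 CPM in complete media, 169 in QCM, 1093 in SCM + IgG, 558 in SCM + anti-Ptk7, 2837 in Wnt5a + IgG and 2258 in Wnt5a + anti-Ptk7. Lama3 had medians of 3.46, 17.3, 63.0, 40.4, 120.8 and 118 CPM in the same order. Fn1 had a median of 16.3 CPM in both Wnt5a conditions and at most 2.08 CPM in any library of the other 4. Ordered by their medians, neighbouring conditions overlapped in Clu, and in Lama3 they overlapped apart from QCM (9.38 to 25.8 CPM) and SCM + anti-Ptk7 (26.3 to 157.2 CPM).

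Of the 39 genes that were lower, complete media lay between the conditions for 21, above both for 15 and below both for 3, and it was nearer to SCM + anti-Ptk7 for 26. QCM lay between them for 18 and above both for 20. Hist1h4d had medians of 81.6 CPM in complete media, 113 in QCM, 90.1 in SCM + IgG, 65.5 in SCM + anti-Ptk7, 68.9 in Wnt5a + IgG and 45.7 in Wnt5a + anti-Ptk7. Apoa1 had a different order, with 266 CPM in complete media, 467 in QCM, 498 in SCM + IgG, 449 in SCM + anti-Ptk7, 308 in Wnt5a + IgG and 225 in Wnt5a + anti-Ptk7, so that the 3 conditions with conditioned medium were the highest. Psat1 was highest in complete media, with medians of 241 CPM there, 196 in QCM, 182 in SCM + IgG, 155 in SCM + anti-Ptk7, 163 in Wnt5a + IgG and 116 in Wnt5a + anti-Ptk7.

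**Figure D5:**
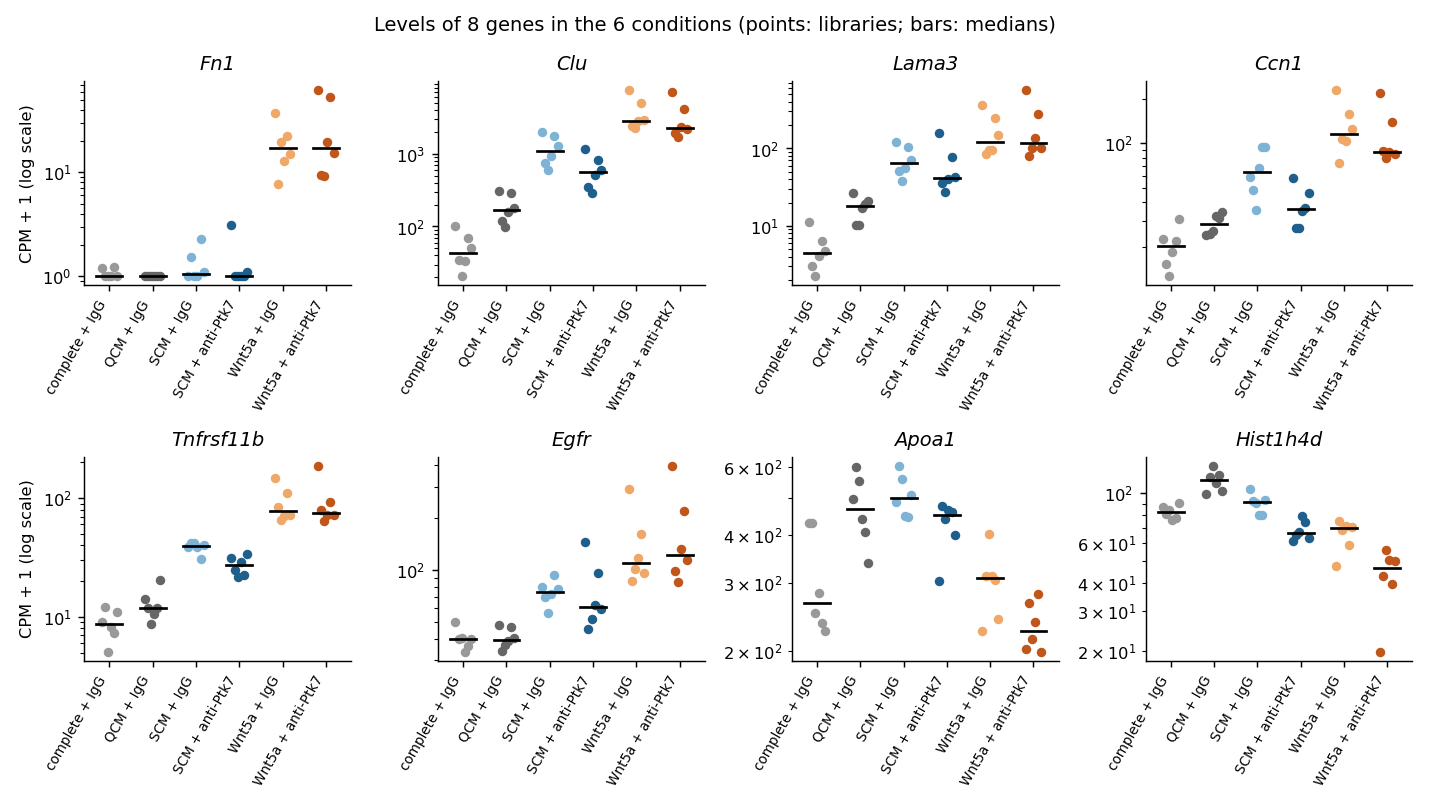
CPM + 1 on a log scale for 8 genes in the 6 conditions, with each of the 6 libraries as a point and the median as a bar. Fn1 is near 0 outside the Wnt5a conditions, Clu and Lama3 lie lowest in complete media and highest in Wnt5a, and Apoa1 in complete media lies nearer to the Wnt5a conditions than to the conditioned media.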

How the data were processed

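Organoid RNA was amplified from low input and sequenced in 36 libraries. Using HTSeqGenie and GSNAP, the authors aligned the reads to mouse NCBI Build 38, and the deposited values are whole-number gene counts without normalization. The strand setting of the counting is not given in the sources used here, so a gene and its antisense partner may share reads. Samples were grouped by the treatment and replicate number of their titles, and the labels do not say that replicates are separate animals, so p values measure the spread between these libraries. Names and positions are from GENCODE M21 (GRCm38).

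From the 52636 genes listed, 15497 passed filterByExpr of edgeR 4.0.16 (R 4.3.3). TMM factors scaled the libraries. The quasi-likelihood test was run in one model of 36 libraries and 6 condition means, with Benjamini-Hochberg adjustment over all genes tested. Calls needed a fold change over 1.5 with the adjusted p under 0.05. CPM used TMM, and log2 CPM a prior count of 2. At 10581350 to 15726081 counts per library in the conditions compared, abundant genes are limited by the spread between libraries and rare ones also by counting error. Alternatives were voom with limma 3.58.1 on quantile-normalized values, which the paper's methods name, voom with TMM, DESeq2 1.42.0, other scalings, filters and fold cutoffs, the replicate block, fewer libraries, and each library left out. After the data were seen, leaving out a number from both conditions and the block within the 12 libraries were added. On simulated counts of 15253 genes for this comparison, the test recovered 93 of 100 genes changed 2-fold and 99 of 100 changed 4-fold, with 10 false calls. The changed genes were drawn from the more abundant ones, and each library was simulated independently around a common mean. No simulated library stood apart as Wnt5a + anti-Ptk7 replicate 1 did. These numbers check the code and do not give the power or the false calls in the real data.

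The main model has no replicate block. The study's design names 6 mice by numbers 1 to 6 without stating that these are the replicate numbers, so whether the numbers pair the libraries is not known, and values with the block are given as an alternative. Deviations from the condition mean correlated at 0.0991 on average between libraries of the same number (0.00234 to 0.308, 2 of 6 over 0.1), against −0.0188 for different numbers.

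The genes named are Ptk7, the called members of the gene lists and up to 14 genes each way with the largest log2 fold change among called genes whose libraries do not overlap and whose mean log2 CPM is over 1; other genes are named as chosen after their values were seen or as uncalled list members. The comparison, the lists and the rule were chosen with earlier results of these data known. A table of all libraries repeats the same counts and was not used. Some genes that met the naming rule are not reported here.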

Additional observations from a re-analysis of the deposited data

Results flagged for a closer look

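In groups of 6 libraries, the gap of the highest or lowest library to its nearest neighbour on the log2 CPM scale was compared with the range of the group (Dixon's ratio, against its 95% critical value). Of 102 groups, for 51 genes in both conditions, 5 exceeded it, about the 1 in 20 that chance gives, and all 5 involved replicate 1. In SCM + anti-Ptk7 replicate 1, Fn1 was at 2.08 CPM with the other 5 libraries between 0 and 0.0932 CPM, and Ano1 was at 217.7 CPM with the others between 65.4 and 100.6 CPM. In Wnt5a + anti-Ptk7 replicate 1, Tnfrsf11b was at 185.4 CPM with the others between 63.6 and 91.5 CPM, and Dusp4 was at 107.9 CPM with the others between 36.7 and 54.6 CPM. Hist1h4d was lowest there, at 18.8 CPM, with the others between 38.5 and 54.9 CPM. The part of replicate 1 in the comparisons is given by the fits without it.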

How the results depend on the processing

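Over 31 alternative fits, the 51 named genes kept their direction in all 1571 values, and 458 values for 47 of them no longer passed the threshold. The counts of higher and lower genes with anti-Ptk7 moved from 198 and 39 to 298 and 68 with DESeq2, 104 and 4 at a fold change over 2, 10 and 0 with glmTreat, 310 and 319 with no fold-change cutoff, 411 and 88 with the replicate block, and 10 and 1 with only the 12 libraries. With the block in those 12 libraries, added after seeing the data, 328 were higher. With quantile-normalized values in voom and limma, 75 were lower. Leaving out 1 library, or a number from both conditions (added after seeing the data), gave 17 to 411 higher and 2 to 92 lower genes; without number 4 they were 96 and 13, and without number 5 they were 46 and 9. With IgG, the counts of 46 and 61 moved to 94 higher with DESeq2, 75 higher by voom with TMM, 23 and 14 at a fold change over 2, 1 and 0 with glmTreat, 108 and 328 with no cutoff, 24 and 27 with only that pair, 160 and 99 with the replicate block, and 8 to 78 and 11 to 107 without 1 library. The interaction gave 3 genes with the replicate block and 0 in the other alternatives. Of the 51 named genes, Ahr and Plin2 lost their call with the replicate block, and it changed no other call of them. The cause of these shifts was not tested, apart from cutoffs that change the rule itself. Counts of positions against complete media and QCM stayed within 1.5 times. Medians of 5 of 37 lists moved by more than the spread between pairs under 8 of 1145 values. Depth limits genes near 0 counts, such as Fn1 and Angptl2 in SCM + anti-Ptk7.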
